A study of Mus musculus with 32 samples.

Results

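T cell receptor variable segments are the germline pieces that open each receptor chain, and the 59 described here were chosen by a rule on measured values. A segment belonged to the set when its mouse symbol began with Trav, Trbv, Trdv or Trgv and its FPKM was above 0 in at least 3 of the 16 mice of the study. FPKM counts the fragments of a transcript, scaled to its length and to the mapped fragments of the library. The rule took 59 of the 168 such segments in the deposited table. They comprised 40 of 128 alpha (Trav), 16 of 34 beta (Trbv), 1 of 1 gamma (Trgv) and 2 of 5 delta (Trdv) segments. Another 66 segments were listed at 0 in all 16 mice and 43 were above 0 in 1 or 2 mice. Other gamma segments carry symbols that begin with Tcrg-V. The table held 6 of these, 4 of them above 0 in at least 3 mice, and they fall outside the symbol rule.

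The study sequenced bulk lung RNA of 16 male C57BL/6J mice of wild type genotype, 6 to 8 weeks old, in 4 groups of 4. Rosoxacin-treated mice received World Trade Center particulate matter (WTCPM), the dust of the collapsed towers, into the nose, and rosoxacin, a quinolone antibacterial, at 5 mg/kg by intraperitoneal injection. Dexamethasone-treated mice received the same dust and dexamethasone, a glucocorticoid, at 0.1 mg/kg by the same route. WTCPM mice received the dust with no drug, and control mice were healthy animals that received neither dust nor drug. The 16 mice were separate animals, and each was sequenced in 2 lanes, whose FPKM were averaged.

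Each developing T cell joins 1 variable segment to a joining segment, with a diversity segment between them in beta and delta chains, by V(D)J recombination. Alpha chains pair with beta chains in the majority of circulating T cells, and gamma chains with delta chains in a smaller lineage that is common at barrier tissues such as the lung. The variable segment encodes the leader and the antigen-binding loops CDR1 and CDR2, and its conserved cysteine near the 3′ end opens CDR3, the loop that recombination makes. The level of a segment in whole lung depends on how many T cells carry it and on how much RNA each makes. Fewer cells of a type and less RNA per cell cannot be told apart in bulk samples.

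The 3′ ends of 7 segments are shown because they carry the conserved cysteine. They are Trbv16, Trbv3 and Trbv1, each with an adjusted p under 0.05 in a comparison, the most abundant member (Trbv13-2) and the delta and gamma members. Each is the last 60 coding bases in GENCODE M21, on GRCm38, the build of mm10, with in-frame cysteine codons in capitals. All lie on the plus strand except Trgv2, which is on the minus strand and is printed as its coding strand. The stretches are chr6:40891826-40891885 for Trbv1, chr6:41048769-41048828 for Trbv3, chr6:41152171-41152230 for Trbv16 and chr6:41121773-41121832 for Trbv13-2. They are chr14:53961543-53961602 for Trdv2-2, chr14:54075456-54075515 for Trdv4 and chr13:19336573-19336632 for Trgv2.
Trbv16: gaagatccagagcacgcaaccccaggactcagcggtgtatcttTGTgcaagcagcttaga
Trbv3: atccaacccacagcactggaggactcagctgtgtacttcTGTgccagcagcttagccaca
Trbv1: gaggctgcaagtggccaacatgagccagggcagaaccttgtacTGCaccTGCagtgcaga
Trbv13-2: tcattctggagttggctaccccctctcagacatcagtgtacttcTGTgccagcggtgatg
Trdv2-2: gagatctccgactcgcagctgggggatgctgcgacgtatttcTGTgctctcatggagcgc
Trdv4: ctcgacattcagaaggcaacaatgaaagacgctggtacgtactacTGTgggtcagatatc
Trgv2: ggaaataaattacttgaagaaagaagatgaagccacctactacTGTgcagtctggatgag
Trbv1 held 2 in-frame cysteine codons in this stretch and the other 6 segments held 1 each.

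The alpha segments lie in a duplicated part of chromosome 14, where copies carry a d or n in their symbol, and the copies differ little. The last 120 coding bases of a trio from the Trav14 family show this, with bases that differ from Trav14-2 in capitals. They are chr14:53641106-53641225 for Trav14-2, chr14:53260060-53260179 for Trav14n-2 and chr14:52949050-52949169 for Trav14d-2, all on the plus strand of GRCm38.
Trav14-2: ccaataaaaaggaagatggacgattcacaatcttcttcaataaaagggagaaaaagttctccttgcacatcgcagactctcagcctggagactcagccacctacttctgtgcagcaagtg
Trav14n-2: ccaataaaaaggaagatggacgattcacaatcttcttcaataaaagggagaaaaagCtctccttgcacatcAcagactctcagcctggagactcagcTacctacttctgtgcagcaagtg
Trav14d-2: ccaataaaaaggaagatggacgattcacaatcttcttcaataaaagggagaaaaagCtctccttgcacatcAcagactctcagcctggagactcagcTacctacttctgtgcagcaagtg
Both copies differed from Trav14-2 at 3 of these 120 bases and at 8 of the 364 bases of the coding sequence, and they were identical to each other over it. Of the 40 alpha members, 33 had another member at 95% identity or more.

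Reads of 50 bases cannot always be placed on 1 copy. The labels give this length but describe the run as both single and paired, and a pair of reads could be placed where 1 read could not, so the shares below are for single reads. Each member's transcripts were cut into overlapping windows of 50 bases, and each window was looked for in the transcripts of all other GENCODE genes, on either strand. A median of 22.4% of an alpha member's windows were found nowhere else, 15 alpha members had no window of their own, and only Trav21-dv12 was free of shared windows. Of the 16 beta members, 13 had no shared window and the lowest share was 98.8% (Trbv12-2). Trdv4 was unique in 100% of its windows, Trgv2 in 93.0% and Trdv2-2 in 47.4%. Trdv2-2 shared 183 windows with Trdv2-1 and 131 with the antisense gene Gm43647. Gm43647 was listed at 0 in all 16 mice, and Trdv2-1 was above 0 in dexamethasone-treated mouse 2 (0.326 FPKM) and WTCPM mouse 1 (0.110 FPKM) only. Values of single alpha segments are therefore given as uncertain between copies.

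**Figure D1:**
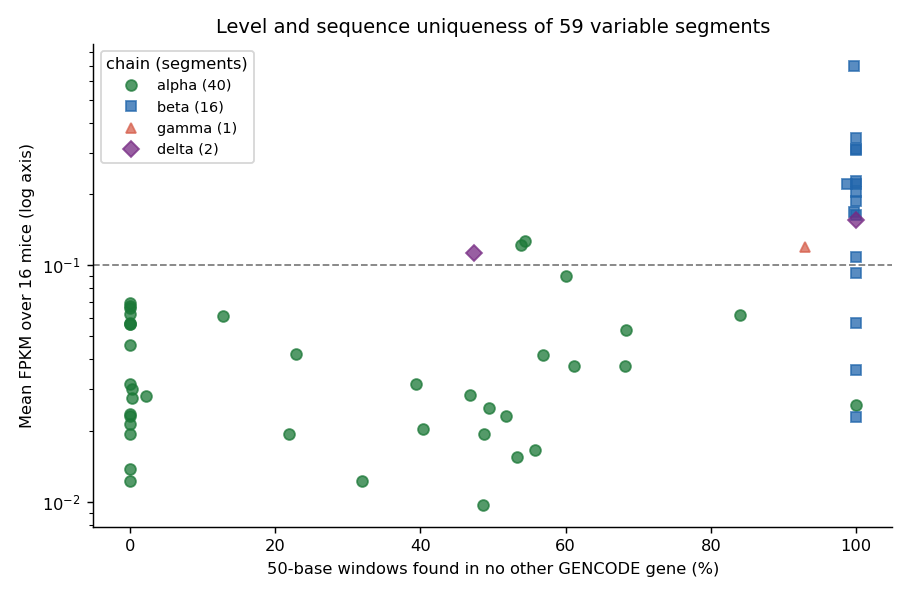
Share of each segment's 50-base windows found in no other GENCODE gene (x, percent) against its mean FPKM over 16 mice (y, log axis), 1 point per segment, by chain. Beta segments sit at or near 100%, alpha segments have a median of 22.4%, and the dashed line marks the mean of 0.1 FPKM from which genes were tested.

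The members were low and intermittently detected. Averaged over the 16 mice, the 59 segments summed to 5.39 FPKM, of which the beta chain held 62.5%, the alpha chain 30.3%, the delta chain 4.99% and Trgv2 2.21%. Of the 944 values (59 segments in 16 mice), 57.1% were 0. Among the 405 values above 0, both lanes of the mouse were above 0 in 99 and only 1 lane in 306. The 17 members just inside the rule, above 0 in 3 mice, had mean levels of 0.00970 to 0.0927 FPKM, and the 20 segments just outside, above 0 in 2 mice, 0.00573 to 0.0653 FPKM. The files give no read counts, so the depth behind these values is unknown. A value of 0 means only that a segment is listed at 0.

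A few facts of the whole table bear on these values. Annotated genes held 0.114% of all FPKM, the rest being in assembled loci without gene names, and receptor expression assigned to those loci is not included here. The summed FPKM of a mouse averaged 1066174 ± 183095 in rosoxacin-treated, 803303 ± 44351 in dexamethasone-treated, 770770 ± 31240 in WTCPM and 836635 ± 178146 in control mice (SD, n = 4 each). The rosoxacin-treated mice carried library numbers 1 to 4 and the others 5 to 23, so treatment and position in the library series cannot be told apart in that group. Of the marker lists for other cell types, immunoglobulin segments aside, only Cxcr2 and Ly6g, both of neutrophils, had an identifier of their own, so the tissue label could not be checked against the defining markers of macrophages, epithelium or endothelium.

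**Figure D2:**
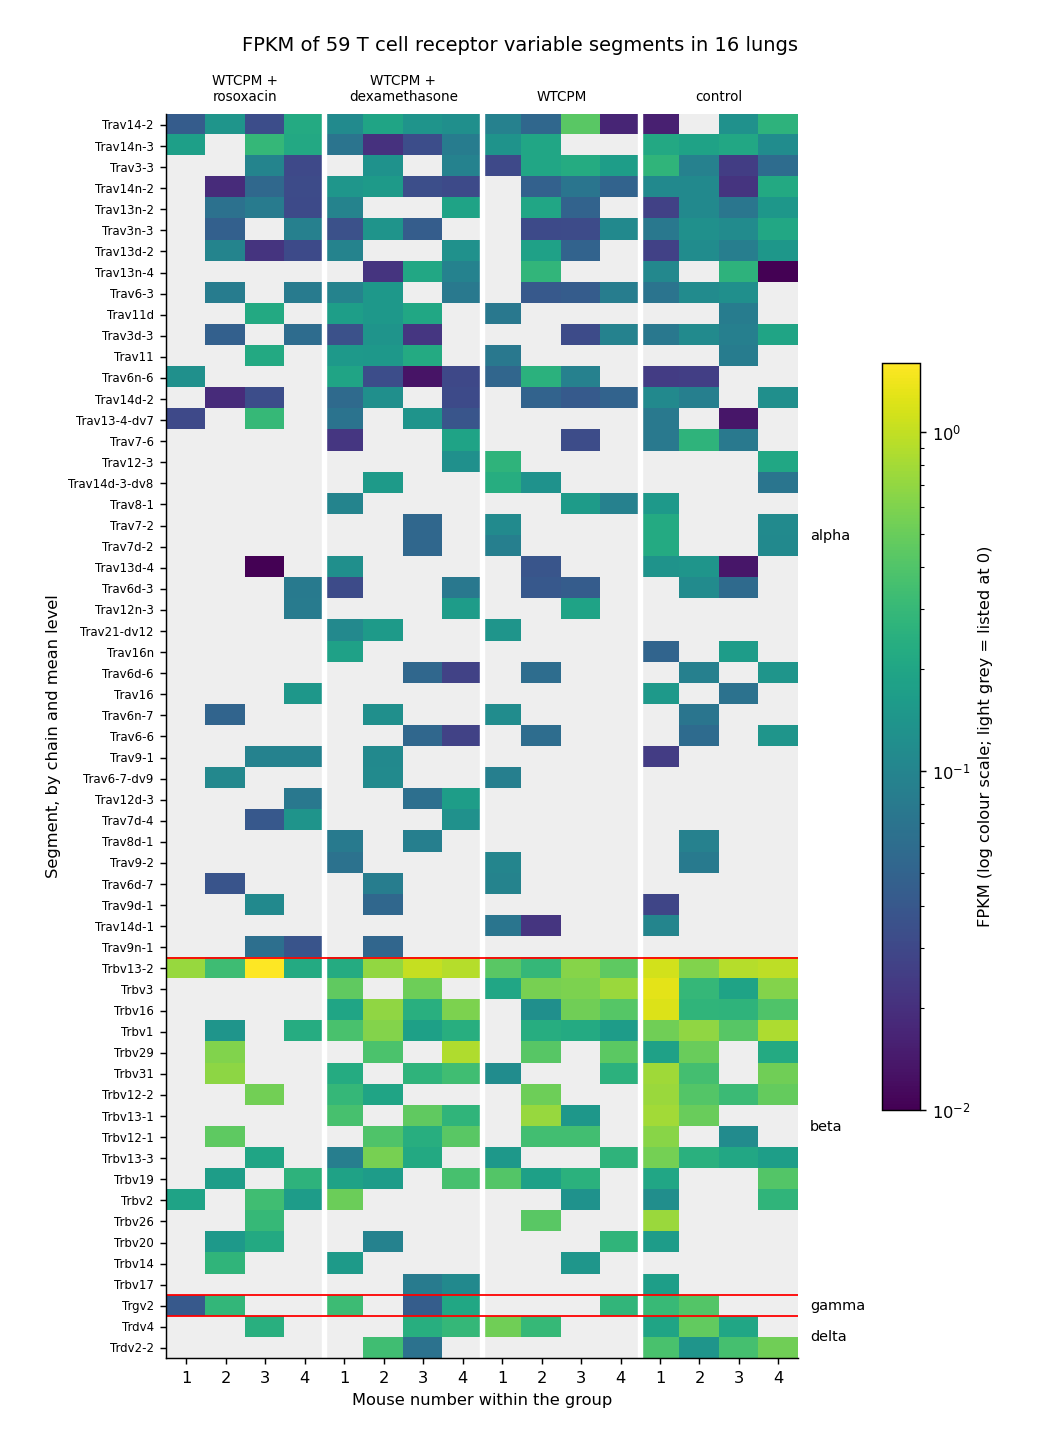
FPKM of all 59 segments (rows, by chain and mean level) in the 16 mice (columns, by group), on a log colour scale with 0 in light grey. Trbv13-2 is the single row without a grey cell, and the rosoxacin-treated columns hold the fewest coloured cells on average, 7 to 22 per mouse.

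By chain, the group means of summed FPKM were lowest in rosoxacin-treated mice for alpha, beta and delta members and highest in control mice for all 4 chains. Gamma here is Trgv2 alone. Of the Tcrg-V segments outside the rule, Tcrg-V1 and Tcrg-V6 were at 0 in every control mouse. Among controls, Tcrg-V4 (0.266 FPKM) and Tcrg-V5 (0.0108 FPKM) were above 0 in mouse 3 only, and Tcrg-V3 (0.105 FPKM) in mouse 2 only. In rosoxacin-treated mice 1 to 4, Tcrg-V1 had 0, 0.209, 0 and 0.148 FPKM and Tcrg-V4 0.182, 0.402, 0 and 0 FPKM. Tcrg-V5 had 0.337 and 0.0832 FPKM in mice 1 and 2 of that group, and Tcrg-V6 0.179 FPKM in mouse 1. Over all 59 members the sum was 3.15 ± 1.65 FPKM in rosoxacin-treated, 5.85 ± 0.717 in dexamethasone-treated, 4.55 ± 1.06 in WTCPM and 7.99 ± 3.30 in control mice (SD, n = 4 each). The number of members above 0 was 17.2 ± 6.90, 30.2 ± 2.06, 22.5 ± 4.51 and 31.2 ± 6.65 segments per mouse in the same 4 groups. Every dexamethasone-treated mouse, with 28 to 33 segments, exceeded every rosoxacin-treated mouse, with 7 to 22. With both lanes required above 0 these groups overlapped, at 10, 5, 6 and 5 segments against 2, 2, 6 and 0. Annotated genes above 0 numbered 5764, 5630, 6053 and 5841 in dexamethasone-treated and 5434, 5654, 5628 and 5699 in rosoxacin-treated mice, which also overlapped. Counted over mice, 19 members were above 0 in no rosoxacin-treated mouse, against 3 in dexamethasone-treated, 11 in WTCPM and 8 in control mice. Conversely, 2 members were above 0 in all 4 rosoxacin-treated mice, 7 in all 4 dexamethasone-treated, 4 in all 4 WTCPM and 14 in all 4 control mice. These totals are descriptions of members chosen on the same values and carry no test. Shares over all genes were not taken for the members above 0 in no mouse or in all 4 mice of a group.

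Alpha segments summed to 0.378, 0.718, 1.67 and 1.45 FPKM in rosoxacin-treated mice 1 to 4, and 2.04, 2.27, 1.44 and 1.84 FPKM in dexamethasone-treated mice. The sums were 1.79, 1.91, 1.51 and 0.670 FPKM in WTCPM mice and 2.39, 2.01, 1.71 and 2.28 FPKM in control mice. Each rosoxacin-treated mouse lay below each control mouse, with 1.67 and 1.71 FPKM as the nearest values, while the 4 WTCPM mice overlapped both. Beta segments summed to 0.922, 2.82, 3.17 and 0.880 FPKM in rosoxacin-treated mice, 3.09, 3.82, 3.24 and 4.14 FPKM in dexamethasone-treated mice, 1.31, 3.85, 3.00 and 3.05 FPKM in WTCPM mice and 9.29, 3.90, 2.43 and 4.95 FPKM in control mice. The beta sums of rosoxacin-treated and control mice overlapped, and control mouse 1 was the highest of all 16. The delta sum was 0.0615 ± 0.123 FPKM in rosoxacin-treated, 0.234 ± 0.157 in dexamethasone-treated, 0.209 ± 0.260 in WTCPM and 0.570 ± 0.0348 in control mice (SD, n = 4 each). Its control values, 0.533 to 0.617 FPKM, were above those of all rosoxacin- and dexamethasone-treated mice. The delta sum includes Trdv2-2, which entered the set only through its control values, so the choice favoured this gap. The other delta member, Trdv4, overlapped in all 4 groups.

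**Figure D3:**
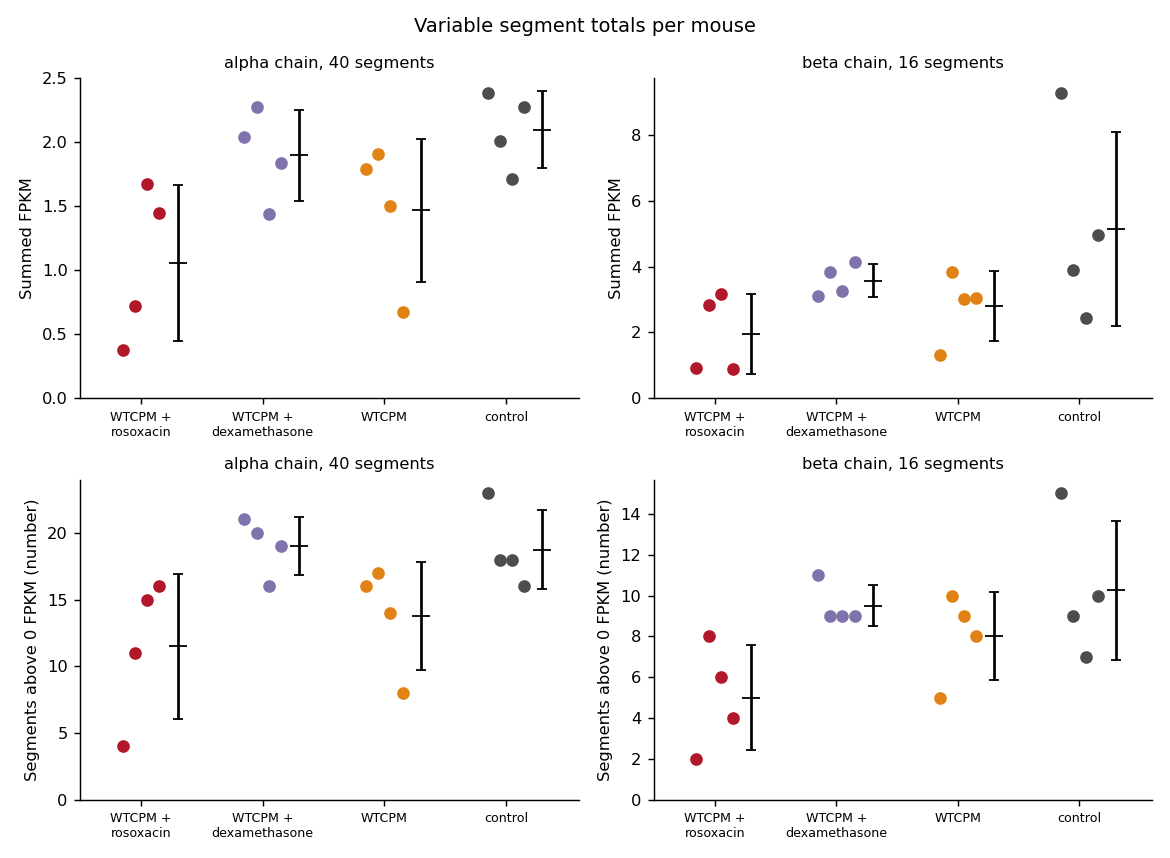
Summed FPKM (top) and number of segments above 0 (bottom) of the 40 alpha and 16 beta segments, 1 point per mouse, with the mean and SD of each group beside its points (n = 4). Rosoxacin-treated mice have the lowest means, 1.06 FPKM for alpha and 1.95 FPKM for beta, and control mouse 1 stands at 9.29 FPKM for beta.

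Tests were run where they could be, on the 2749 annotated genes that averaged 0.1 FPKM or more, among them 17 members: 2 alpha, 12 beta, Trgv2, Trdv4 and Trdv2-2. Trdv2-2 reached that mean, and the 3 mice of the membership rule, only through the control mice: in the 12 others it was above 0 in 2 and averaged 0.0337 FPKM. A lower value than in controls was therefore built into its choice, and its differences from them are given as a description with no test. Trgv2, at 0.0988 FPKM in the 12 others, also reached the mean only through the controls. The other 15 tested members met both limits without them. The fit was limma on log2(FPKM + 0.1) over all 16 mice. A log2 change on that scale understates the change of low genes and, where a group is listed at 0, depends on the 0.1 added. The 42 members below the filter were described without a test. The 5 comparisons share control or WTCPM mice, so their values stand side by side and are not independent.

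The comparison of rosoxacin-treated with control mice was the only one with members past the threshold. Trbv16, Trbv3 and Trbv1 of the beta chain were lower in rosoxacin-treated than in control lungs, 3 of the 16 tested members other than Trdv2-2. No member passed as higher. These groups differ in both dust and drug, which this comparison cannot tell apart. Over all tested genes 91 passed, 3.31%, of which 73 were lower and 18 higher. At an unadjusted p under 0.05, 5 of those 16 members were lower, beside 14.8% of all tested genes, the other two being Trbv12-2 and Trbv13-3. The median log2 change was -0.97 over the 17 members and -0.11 over all 2749 genes. The 17 include Trdv2-2 and Trgv2, which met the mean filter only through the controls. On TPM these medians were -1.10 and -0.35, and with median-of-ratios scaling -0.96 and 0.01.

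Trbv16 (chr6:41151740-41152230, plus strand) was listed at 0 in all 4 rosoxacin-treated mice, against 1.22, 0.278, 0.271 and 0.392 FPKM in control mice. The groups did not overlap, and control mouse 1 was far above the other 3. limma gave an adjusted p of 0.0219. No fold is given for a group at 0. Trbv16 was also above 0 in every dexamethasone-treated mouse, at 0.196, 0.695, 0.246 and 0.590 FPKM.

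Trbv3 (chr6:41048290-41048828, plus strand) was likewise listed at 0 in all 4 rosoxacin-treated mice, against 1.31, 0.295, 0.188 and 0.629 FPKM in control mice, with an adjusted p of 0.0312 in limma. Every control mouse was above every rosoxacin-treated mouse. In the 4 WTCPM mice it stood at 0.202, 0.563, 0.587 and 0.751 FPKM, within the range of the controls. In dexamethasone-treated mice it was 0.468, 0, 0.527 and 0 FPKM.

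Trbv1 (chr6:40891229-40891885, plus strand) had 0, 0.141, 0 and 0.229 FPKM in rosoxacin-treated mice and 0.536, 0.694, 0.425 and 0.858 FPKM in control mice. The highest rosoxacin-treated value was below the lowest control value. The log2 change was -2.08 (SE 0.45, limma adjusted p = 0.0219). Trbv1 is among the beta segments that natural killer T (NKT) cells of the mouse can pair with their Trav11 chain.

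Trdv2-2 (chr14:53960944-53961602, plus strand), a delta segment, was listed at 0 in all 4 rosoxacin-treated mice, against 0.375, 0.141, 0.361 and 0.533 FPKM in control mice. It was listed at 0 in all 4 WTCPM mice too, and in dexamethasone-treated mice 1 and 4, with 0.336 and 0.0674 FPKM in mice 2 and 3. Control mice were the only group with all 4 animals above 0, and these are the values that chose it. Under 50% of its windows are its own, and reads from the 183 windows it shares with Trdv2-1 cannot be told apart from those of Trdv2-1. Trdv2-1 itself was listed at 0 in all 4 rosoxacin-treated and all 4 control mice.

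The calls of the 3 beta segments passed or missed the threshold by setting, while their log2 changes stayed negative in each setting named here. None passed without control mouse 1 (limma adjusted p 0.0693 to 0.103) or without rosoxacin-treated mouse 3 (0.0629 to 0.0692). Their log2 changes were then -2.13 to -2.04 and -2.55 to -1.83, against -2.55 to -2.08 with all mice. Only Trbv16 passed without rosoxacin-treated mouse 1 or without control mouse 4, and only Trbv1 without rosoxacin-treated mouse 4. Trbv3 was lost without rosoxacin-treated mouse 2. With library number as a covariate, which is confounded with rosoxacin treatment, the changes were -1.82 to -1.32 and none passed in limma (adjusted p 0.383 to 0.583). In lane 1 alone none of the 3 passed, and in lane 2 alone only Trbv1 did (limma adjusted p = 0.0462). All 3 passed on TPM and with median-of-ratios scaling. With all genes above 0 in at least 3 mice tested, none of the 3 passed (limma adjusted p 0.0670 to 0.0858). With a pseudocount of 1 only Trbv1 passed (limma adjusted p = 0.0295). With a pseudocount of 0.01 Trbv16 and Trbv3 passed and Trbv1 did not (limma adjusted p = 0.0603).

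**Figure D4:**
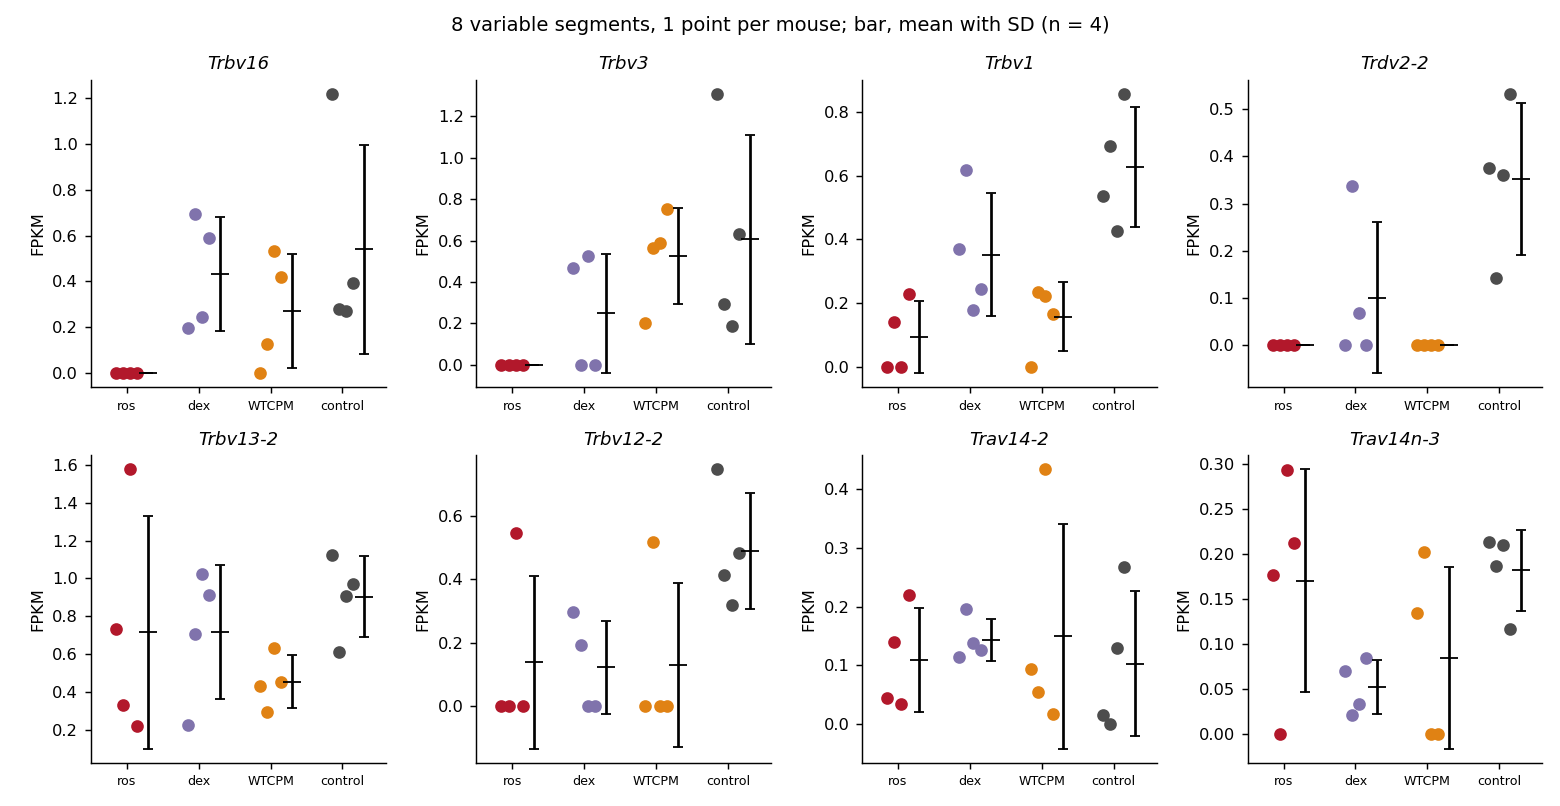
FPKM of 8 segments by mouse and group, with the mean and SD of each group (n = 4); ros and dex are the rosoxacin- and dexamethasone-treated mice. Trbv16, Trbv3 and Trdv2-2 lie at 0 in all 4 rosoxacin-treated mice, whereas Trbv13-2 lies above 0 in all 16 mice.

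Not every beta segment had that pattern. Trbv13-2 (chr6:41121396-41121832, plus strand), the most abundant member at a mean of 0.698 FPKM, was the only member above 0 in all 16 mice, although both lanes were above 0 in only 8 of them. It had 0.731, 0.332, 1.57 and 0.222 FPKM in rosoxacin-treated mice, against 1.12, 0.614, 0.905 and 0.969 FPKM in control mice. These ranges overlapped, and the log2 change was -0.57 (SE 0.44, limma adjusted p = 0.522). Trbv2 had 0.191, 0, 0.334 and 0.165 FPKM in rosoxacin-treated mice and 0.122, 0, 0 and 0.278 FPKM in control mice, and was one of the 2 tested members with a positive log2 change (0.50, SE 0.64, limma adjusted p = 0.729). Trav14-2 was the other, at 0.15 (SE 0.48, limma adjusted p = 0.900).

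Among all 59 members, 42 had a lower mean in rosoxacin-treated than in control mice, 16 a higher mean and 1 the same. Alpha copies such as Trav6-6 and Trav6d-6 carry nearly the same values, so members are not separate signals in this or the later counts. Like Trdv2-2, these reached the 3 mice of the rule only with control mice: Trav7-2, Trav7d-2, Trav8d-1, Trav9-2, Trav9d-1, Trav12-3, Trav14d-1, Trav16, Trav16n, Trbv17 and Trbv26. For them the choice favoured a lower mean than in controls, here and in the later counts against controls. Trav6-7-dv9, Trav6d-7, Trav7d-4, Trav9n-1, Trav12d-3, Trav12n-3, Trav21-dv12 and Trbv14 reached it with no control mouse. Of the 8288 annotated genes above 0 in at least 3 mice, 54.7% had a lower mean. In 5 members all 4 rosoxacin-treated mice were below all 4 control mice, beside 4.31% of those genes. These were Trbv16, Trbv3, Trbv1, Trav3d-3 and Trdv2-2, which was chosen through its control values. Trav3d-3, named after its values were seen, had 0, 0.0472, 0 and 0.0607 FPKM in rosoxacin-treated mice and 0.0770, 0.114, 0.0899 and 0.194 FPKM in control mice. Its coding sequence is identical to that of Trav3n-3, so its own share of reads is uncertain.

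In WTCPM against control mice no member passed in limma, nor did any of the 2749 genes (0%). At an unadjusted p under 0.05, 2 of the 16 tested members other than Trdv2-2 were lower and none higher, beside 2.18% of all tested genes that were lower. These were Trbv1 and Trbv12-2. Trbv1 had 0, 0.236, 0.223 and 0.166 FPKM in WTCPM mice, all below the 0.425 to 0.858 FPKM of control mice, with a log2 change of -1.61 (SE 0.45, limma adjusted p = 0.324). Trbv12-2 was at 0.520 FPKM in WTCPM mouse 2 and at 0 in the other 3, against 0.749, 0.413, 0.319 and 0.482 FPKM in control mice (log2 change -1.86, SE 0.68, limma adjusted p = 0.715).

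The mean was lower in WTCPM than in control mice for 41 of the 59 members and higher for 15, where 49.2% of the 8288 genes had a lower mean. In 2 members, Trbv1 and Trdv2-2, all 4 WTCPM mice were below all 4 control mice, beside 1.00% of those genes. Of these, Trdv2-2 was chosen through its control values. By chain, 25 of 40 alpha, 13 of 16 beta and all of Trgv2, Trdv4 and Trdv2-2 had the lower mean in WTCPM mice. The median log2 change was -0.61 over the 17 tested members and 0.03 over all 2749 genes. The 17 include Trdv2-2 and Trgv2, which met the mean filter only through the controls, and -0.61 is the value of Trgv2.

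Rosoxacin-treated against WTCPM mice gave no member past the threshold either, beside 0.546% of all tested genes. At an unadjusted p under 0.05, 2 of 17 members were lower, beside 12.3% of all tested genes. Trbv3 was listed at 0 in the rosoxacin-treated mice and above 0 in all 4 WTCPM mice, with a limma adjusted p of 0.0560. It passed in 9 of 28 alternatives. Of these, 5 left out 1 mouse (dexamethasone-treated 2, 3 or 4, WTCPM 1 or control 1; limma adjusted p 0.0402 to 0.0492), and 4 were a pseudocount of 0.01, TPM, assembled loci fitted together and the 2 groups alone. Trbv16 was listed at 0 in the rosoxacin-treated mice, against 0, 0.126, 0.532 and 0.420 FPKM in WTCPM mice (limma adjusted p = 0.154). Trbv1, lower than in controls in both groups, overlapped between them (log2 change -0.47, SE 0.45, limma adjusted p = 0.664).

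Of the 59 members, 37 had a lower mean in rosoxacin-treated than in WTCPM mice and 18 a higher one, and 55.1% of the 8288 genes had a lower mean. Only Trbv3 had all 4 rosoxacin-treated mice below all 4 WTCPM mice, where 4.26% of those genes did. Trbv2 had the highest log2 change of the tested members, 0.96 (SE 0.64, limma adjusted p = 0.485). It stood at 0.191, 0, 0.334 and 0.165 FPKM in rosoxacin-treated mice and 0, 0, 0.132 and 0 FPKM in WTCPM mice. Trav14n-3 was also higher in mean, with 0.177, 0, 0.293 and 0.212 FPKM in rosoxacin-treated mice and 0.135, 0.202, 0 and 0 FPKM in WTCPM mice (log2 change 0.57, SE 0.43, limma adjusted p = 0.560). Trbv13-1 was listed at 0 in all 4 rosoxacin-treated mice and at 0, 0.728, 0.146 and 0 FPKM in WTCPM mice (limma adjusted p = 0.521).

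In dexamethasone-treated against WTCPM mice no member passed in limma and none of the 2749 genes did (0%). Trbv3 alone was lower at an unadjusted p under 0.05 (log2 change -1.26, SE 0.59, limma adjusted p = 0.911), beside 2.91% of all tested genes. The other direction was more frequent, with a higher mean in dexamethasone-treated mice for 38 of 59 members and a lower one for 20, where 49.8% of the 8288 genes had a lower mean. No member had all 4 dexamethasone-treated mice below all 4 WTCPM mice (1.42% of those genes), and none had all 4 above. Trbv1 had 0.369, 0.619, 0.178 and 0.243 FPKM in dexamethasone-treated mice and 0 to 0.236 FPKM in WTCPM mice, which overlapped (log2 change 0.87, SE 0.45, limma adjusted p = 0.950). The median log2 change was 0.45 over the 17 tested members and 0.00 over all 2749 genes.

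Dexamethasone-treated against control mice gave no member past the threshold, beside 0.0364% of all tested genes, which is 1 gene. Trbv12-2 and Trbv3 were lower at an unadjusted p under 0.05, 2 of the 16 tested members other than Trdv2-2, beside 2.11% of all tested genes, with limma adjusted p of 0.882 and 0.960. The mean was lower for 35 of the 59 members and higher for 24, and 50.2% of the 8288 genes had a lower mean. In 2 members all 4 dexamethasone-treated mice were below all 4 control mice, beside 0.869% of those genes. These were Trbv12-2, at 0.296, 0.193, 0 and 0 FPKM against the control values above, and Trav14n-3. Trav14n-3 had 0.0698, 0.0205, 0.0332 and 0.0838 FPKM in dexamethasone-treated mice and 0.214, 0.187, 0.211 and 0.117 FPKM in control mice (log2 change -0.90, SE 0.43, limma adjusted p = 0.960).

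**Figure D5:**
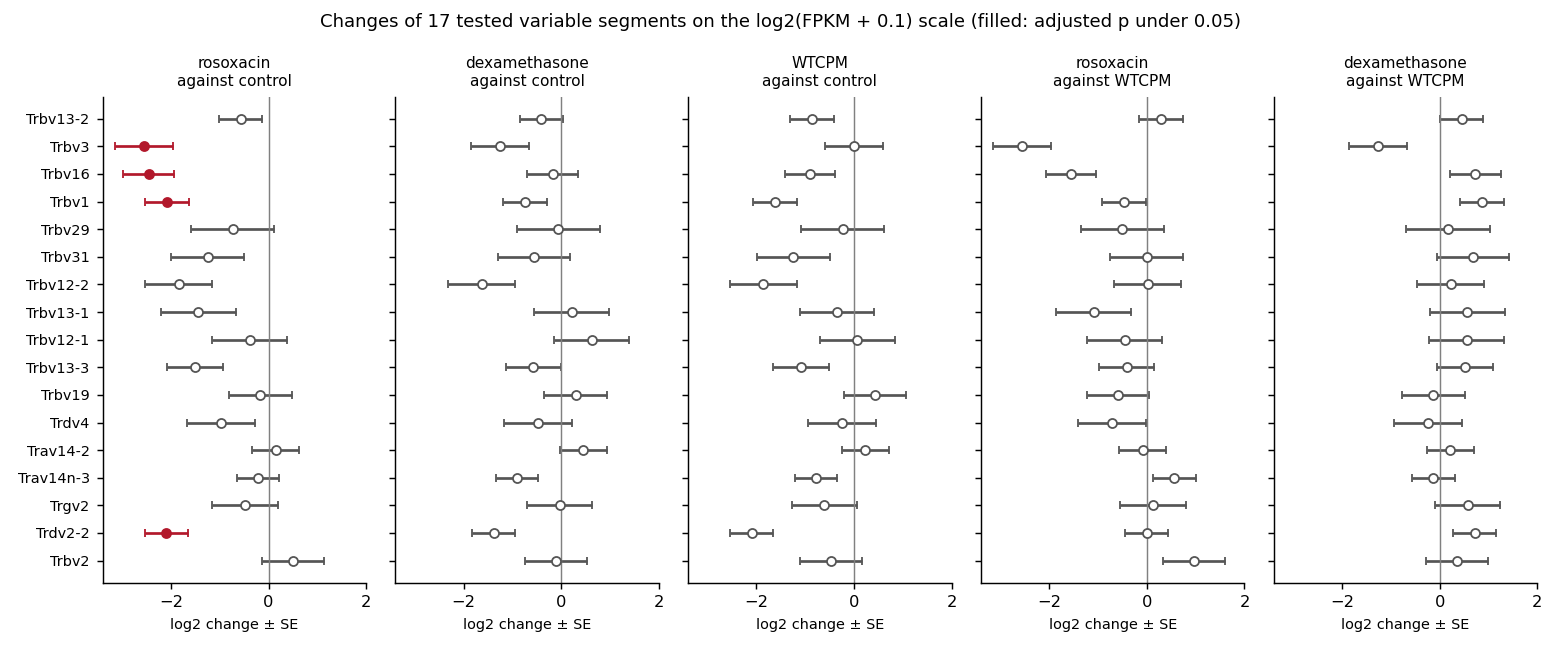
Log2 changes with SE of the 17 tested segments in 5 comparisons, on the log2(FPKM + 0.1) scale, ordered by mean level; filled points have a limma adjusted p under 0.05. Filled points appear only in the rosoxacin against control panel (Trbv3, Trbv16, Trbv1 and Trdv2-2), where Trdv2-2 was chosen through its control values, and the panels share control or WTCPM mice.

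The remaining chains and segments varied without a call. Trdv4 had 0.246 FPKM in rosoxacin-treated mouse 3 and 0 in the other 3, and 0, 0, 0.242 and 0.291 FPKM in dexamethasone-treated mice. It had 0.535, 0.300, 0 and 0 FPKM in WTCPM mice and 0.193, 0.475, 0.202 and 0 FPKM in control mice, so all 4 groups overlapped. Trgv2 had 0.0414, 0.285, 0 and 0 FPKM in rosoxacin-treated mice, 0.325, 0, 0.0445 and 0.206 FPKM in dexamethasone-treated mice, 0, 0, 0 and 0.283 FPKM in WTCPM mice and 0.303, 0.414, 0 and 0 FPKM in control mice. No group had Trgv2 above 0 in all 4 mice.

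Other beta segments, named after their values were seen, had no call. Trbv31 lies downstream of the beta constant genes in the opposite orientation to the rest (chr6:41557691-41558452, minus strand). Trbv31 had 0, 0.680, 0 and 0 FPKM in rosoxacin-treated mice and 0.769, 0.351, 0 and 0.531 FPKM in control mice, which overlapped (log2 change -1.25, SE 0.74, limma adjusted p = 0.388). Trbv29, like Trbv1 and the Trbv13 group a beta segment used by NKT cells, was above 0 in 1 rosoxacin-treated, 2 dexamethasone-treated, 2 WTCPM and 3 control mice. Trbv12-1 and Trbv19 were above 0 in 8 and 10 of the 16 mice, with limma adjusted p of 0.697 or more in all 5 comparisons. The 4 beta members below the filter, Trbv26, Trbv20, Trbv14 and Trbv17, were above 0 in 3 to 5 mice each, with means of 0.0229 to 0.0927 FPKM.

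Some alpha copies carried nearly the same values in each mouse. Trav11, which encodes the invariant chain of NKT cells, and Trav11d differ at 1 coding base and were named after their values were seen. Trav11 had 0, 0, 0.219 and 0 FPKM in rosoxacin-treated mice, 0.151, 0.149, 0.224 and 0 in dexamethasone-treated mice, 0.0761, 0, 0 and 0 in WTCPM mice and 0, 0, 0.0848 and 0 in control mice. It was above 0 in 3 of 4 dexamethasone-treated mice and in 1 mouse of each other group. Summed, the pair averaged 0.110 ± 0.220 FPKM in rosoxacin-treated, 0.263 ± 0.185 in dexamethasone-treated, 0.0381 ± 0.0762 in WTCPM and 0.0424 ± 0.0849 in control mice (SD, n = 4 each).

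Summed by family, the 6 Trav14 members were the most abundant alpha family and were above 0 in all 16 mice. They averaged 0.320 ± 0.142 FPKM in rosoxacin-treated, 0.380 ± 0.200 in dexamethasone-treated, 0.428 ± 0.208 in WTCPM and 0.526 ± 0.201 in control mice (SD, n = 4 each). The 3 Trav3 members averaged 0.0939 ± 0.0745, 0.160 ± 0.166, 0.232 ± 0.146 and 0.365 ± 0.105 FPKM in the same 4 groups. All 4 rosoxacin-treated mice, 0 to 0.182 FPKM, were below all 4 control mice, 0.230 to 0.463 FPKM, for the Trav3 sum, whereas the Trav14 sums overlapped. The 5 Trav13 members averaged 0.166 ± 0.170, 0.302 ± 0.192, 0.202 ± 0.339 and 0.376 ± 0.0625 FPKM. No alpha family other than Trav3 had this gap between rosoxacin-treated and control mice. Within it Trav3-3, with 60% of its windows its own, overlapped between these groups. Its values were 0, 0, 0.0989 and 0.0304 FPKM in rosoxacin-treated mice and 0.278, 0.0937, 0.0252 and 0.0603 FPKM in control mice. Trav3d-3 and Trav3n-3 had no window of their own.

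Other T cell genes with an identifier of their own were read beside the segments. Of the 24 genes of the receptor complex and its signalling 1, the costimulatory receptor Icos, had its own identifier, and of 29 T cell identity genes 9 did, 4 of them tested. Icos had 0.729, 0.506, 0.304 and 0.478 FPKM in rosoxacin-treated mice and 0.336, 0.432, 0.490 and 0.530 FPKM in control mice, which overlapped (log2 change 0.11, SE 0.22, limma adjusted p = 0.843). Trat1, an adaptor of the receptor complex, changed by -0.22 (SE 0.32, limma adjusted p = 0.773). The chemokine receptor Ccr4 changed by 0.03 (SE 0.30) and Cd40lg, a helper T cell ligand, by 0.11 (SE 0.38), with limma adjusted p of 0.967 and 0.905. The cytokine Il2 was listed at 0 in all 4 rosoxacin-treated mice, against 0.346, 0.334, 0 and 0.362 FPKM in control mice (limma adjusted p = 0.134). Whether segments and these genes differ in their change was not tested.

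The joining and diversity segments, to which the variable segments are joined, comprised 21 genes with an identifier of their own, of which 5 were tested: Trdj1, Trgj2, Traj49, Traj52 and Trdd2. None passed in any comparison. In rosoxacin-treated against control mice their log2 changes were 1.02, 0.46, -0.55, -0.26 and 1.43, with limma adjusted p of 0.288 to 0.888. Cxcr2, a neutrophil receptor, changed by 0.63 (SE 0.30, limma adjusted p = 0.258) in that comparison. The other neutrophil marker, Ly6g, was above 0 in only 3 of the 16 mice, 2 dexamethasone-treated and 1 control.

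Immunoglobulin variable segments are the matching genes of B cells, and 95 were above 0 in at least 3 mice. Of these, 87 had a lower mean in rosoxacin-treated than in control mice, where 54.7% of the 8288 genes did. The mean was lower in dexamethasone-treated than in control mice for 75, where 50.2% of those genes were lower, and in WTCPM than in control mice for 83, where 49.2% were. Of the 54 tested, 1 passed in rosoxacin-treated against control mice, lower, beside 3.31% of all tested genes. Their sum was 6.79 ± 2.63 FPKM in rosoxacin-treated, 12.5 ± 2.57 in dexamethasone-treated, 10.7 ± 3.51 in WTCPM and 28.4 ± 31.9 FPKM in control mice (SD, n = 4 each). Control mouse 1 stood at 76.1 FPKM, and the other 3 control mice averaged 12.5 ± 3.50 FPKM (SD, n = 3). Mouse 1 had 87 of the 95 segments above 0, so it helped choose them and raises the control means. The counts of lower means above were not taken without it, so they are a description only. Whether receptor and immunoglobulin segments differ in their change was not tested.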

How the data were processed

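Lung RNA libraries of 16 mice, 2 lanes each, were sequenced in reads of 50 bases, per the labels' protocols. The deposited table holds FPKM for 186512 transcripts, made by the authors with HISAT2 2.2.1, SAMtools 1.12 and StringTie 2.1.5 on mm10, per the submitters' processing notes. It holds no counts, so depth is unknown. FPKM were summed per gene identifier and averaged over lanes. Symbols came from a gene name table (25424 of 26305 annotated identifiers matched). Positions and sequences came from GENCODE M21.

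The 2749 annotated genes averaging 0.1 FPKM or more were fitted with limma 3.58.1 in R 4.3.3 on log2(FPKM + 0.1), all 4 groups in 1 fit, two-sided, with Benjamini-Hochberg adjustment at 0.05. The fit was tested on simulated data. Chain sums carry no test. Windows of 50 bases and identities were computed in Python 3.11.15 with Biopython 1.88. Alternatives were other pseudocounts, filters, scalings, single lanes, leaving out each mouse, library number as a covariate and replicate number as a block. Same-numbered mice of different groups are different animals. Members and lists were chosen with earlier results of these data known. Named segments were those past the threshold, the 3 highest per chain, the 5 smallest p in each of 3 comparisons, and those at 0 throughout 1 group and above 0 throughout another. Segments named beyond these were chosen after their values were seen.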

Additional observations from a re-analysis of the deposited data

Results flagged for a closer look

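In 11 of 75 group values looked at, each of 4 mice, 1 mouse lay far from the other 3, by the ratio of its gap to the group's range. Chance flags about 1 in 20 groups, and a group with 3 mice at 0 is flagged whenever the fourth is above 0. Trbv12-2 stood at 0.548 FPKM in rosoxacin-treated mouse 3 and at 0.520 FPKM in WTCPM mouse 2, with 0 in the other mice of either group. Trbv13-3 stood at 0.197 FPKM and Trdv4 at 0.246 FPKM in rosoxacin-treated mouse 3, again with 0 in the other 3. Trbv2 was at 0.513 FPKM in dexamethasone-treated mouse 1 and at 0.132 FPKM in WTCPM mouse 3, and Trgv2 at 0.283 FPKM in WTCPM mouse 4, each the only mouse of its group above 0. Trgv2 was also high in rosoxacin-treated mouse 2, at 0.285 FPKM. Trbv16 was high in control mouse 1, at 1.22 FPKM. Beta segments above 0 numbered 11 in dexamethasone-treated mouse 1 and 9 in the other 3, and 7 of the 59 members were above 0 in rosoxacin-treated mouse 1.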

How the results depend on the processing

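The count of members past the threshold in rosoxacin-treated against control mice was 4, with Trdv2-2, which was chosen through its control values, included. This count became 2 (Trbv1 and Trdv2-2) with a pseudocount of 1. With all genes above 0 in at least 3 mice tested it became 1 (Trdv2-2). It was 1 in lane 1 alone (none of the 4), 1 in lane 2 alone (Trbv1) and 0 with library number as a covariate. Leaving out each mouse gave 0 to 4. The count of 0 in rosoxacin-treated against WTCPM mice became 1 with a pseudocount of 0.01, 1 with assembled loci fitted together, 2 on TPM, 1 in the 2 groups alone and 0 to 1 leaving out each mouse. In WTCPM against control mice it became 1 in lane 1 alone. With replicate number as a block (replicate block) the first count was again 4 and the others 0. Over 24 pairs the same-numbered mice correlated at -0.16 to 0.30. Different-numbered mice were not compared, so this range cannot decide whether the numbers mark a shared block.

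Changes of sign were all in values that did not pass. In dexamethasone-treated against WTCPM mice lane 1 gave log2 changes of 0.000 for Trdv2-2 and -0.56 for Trbv16, and lane 2 gave -0.13 for Trbv1. In rosoxacin-treated against WTCPM mice lane 2 gave -0.26 for Trav14n-3, and the library covariate 0.045 for Trbv13-1. Requiring both lanes above 0 turned or moved differences in the number of segments: alpha -0.25 and all members 1.5 (dexamethasone-treated minus WTCPM), alpha -1.75 (dexamethasone-treated minus control; -2 in lane 1) and beta 0.25 (rosoxacin-treated minus WTCPM). Leaving out each mouse gave -4.17 to 0.25 alpha segments (rosoxacin-treated minus WTCPM). For dexamethasone-treated minus control it gave -0.67 to 1.67 alpha, -1.83 to 0.83 beta and -2.42 to 2.25 of all members. The causes were not tested. The alpha, beta and all-member sums of FPKM kept their direction in every alternative run; gamma and delta sums were not run. Depth is unknown, and 306 of 405 values above 0 rest on 1 lane.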
